A study of Saccharomyces cerevisiae with 12 samples.

Results

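Transcript levels of MATa budding yeast (Saccharomyces cerevisiae, strain MP 384) were compared with and without α-factor, the peptide pheromone of the opposite mating type, with attention to functions other than mating itself. The unstimulated group was 3 biological replicates of log-phase cells in YPD, a rich glucose medium, with 0.1% BSA at 30 °C. The stimulated group was 3 biological replicates of the same strain that had received 10 nM α-factor in the culture left after that harvest and were collected 2 h later. Stimulated cells had thus also grown for 2 h longer, and the part of the pheromone and the part of the culture time cannot be told apart. The labels state no deletion or other allele of the strain. Of the 7126 genes listed for each library, the 6579 with a mean of at least 1 FPKM (sequenced fragments scaled to transcript length and library size) over these 6 libraries were tested. A further 526 genes were at 0 in all 6 libraries and 21 lay above 0 but below that mean; the gene just inside it had 1.03 FPKM and the one just outside 0.930.

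The other 6 of the 12 libraries came from a MATα-playing-a strain (LBHY29), with 3 unstimulated and 3 stimulated replicates treated alike. They shared the estimate of spread and were used for a comparison of the responses at the end. The a-cell markers STE2, MFA1, MFA2, STE6, AGA2 and ASG7 lay above 100 FPKM in all 6 MATa libraries, while BAR1, a marker of the same cells and the protease that inactivates the pheromone, was listed at 0 in all 6. Among the α-cell markers, the receptor STE3, which overlaps another listed gene, lay between 8.40 and 25.6 FPKM, while MF(ALPHA)2 and SAG1 reached 109 and 124 FPKM. Across genes, log2 values correlated at r = 0.961 to 0.971 within a group (6 pairs) and at 0.862 to 0.881 between the groups (9 pairs). Depth is unknown, since the files hold no counts, and summed FPKM was 6.57e+06 to 6.67e+06 in the unstimulated and 5.33e+06 to 5.52e+06 in the stimulated libraries.

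Pheromone binds a receptor coupled to a G protein and acts through a MAP kinase cascade on the transcription factor Ste12. The cells stop in G1, grow toward a partner, and build a mating projection to which secretion and endocytosis are directed. Recycling of cell material, central metabolism and protein synthesis are not classical targets of Ste12, and it is these functions that are described here. Genes of 68 lists drawn up from general knowledge were counted. Below, a log2 change is the difference of group means of log2(FPKM + 1), stimulated minus unstimulated, and is given with its standard error. A gene is said to have risen or fallen where limma's 2-sided test, with Benjamini-Hochberg adjustment over all 6579 genes, gave an adjusted p below 0.05. Levels are in FPKM as scaled in the files, with 3 libraries a group, listed in the order of replicates 1 to 3. Positions count from 1 as in the files; for 6036 of the 6048 gene IDs found in RefSeq assembly R64 they equal that assembly.

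Most genes changed. In limma, 67.0% of the tested genes passed, with 28.7% higher and 38.3% lower, and -0.10 was the median log2 change. The 3 stimulated and 3 unstimulated values did not overlap in 69.8% of the tested genes. List members named below for the size of their change were picked only among those without overlap. For them the lack of overlap describes the values and is no further support. By 2-fold or more, 9.82% were higher and 7.58% lower. A list is therefore described by its counts in each direction set beside these percentages and by its median set beside -0.10. Of the 1802 list members tested, 529 rose and 724 fell; 34 lists had more members higher than lower, 33 more lower than higher, and 1 had equal counts. Recycling, membrane uptake and alternative carbon lay at the higher end of the lists, and the spindle pole body and protein synthesis with its RNA machinery at the lower end. The shares of higher and lower members in the lists of sphingolipids, folding in the endoplasmic reticulum, DNA repair and eisosomes lay near those of all genes. In multidrug resistance and in amino acid and peptide transport the share that rose lay near that of all genes, and a smaller share fell. The values given for all of these lists describe single members. In bulk RNA such as this, a smaller share of cells that express a gene and less RNA per cell cannot be told apart.

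**Figure D1:**
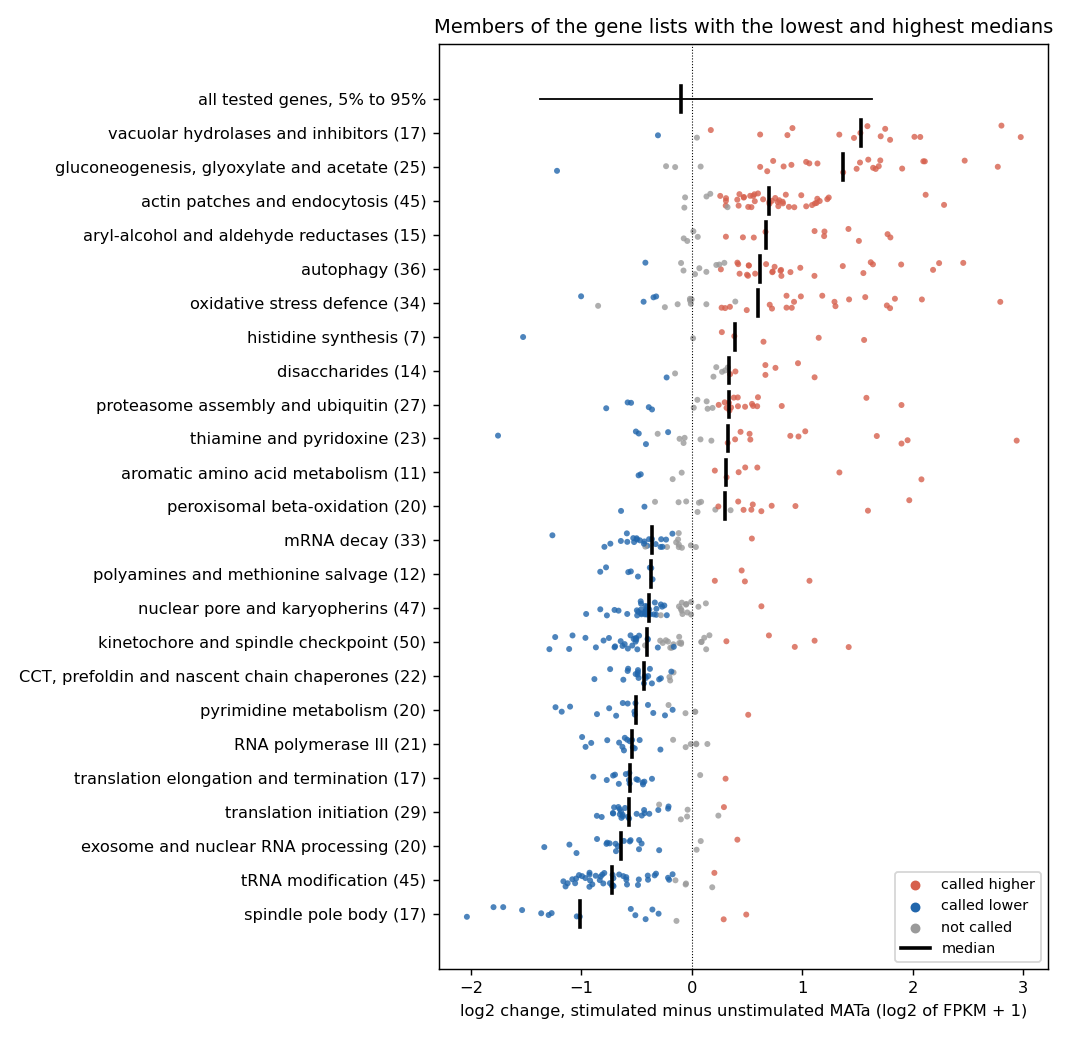
Log2 change of each tested member (dots) of the 12 gene lists with the lowest and the 12 with the highest median, stimulated minus unstimulated MATa cells on the log2(FPKM + 1) scale; bars mark the list medians and the range of all tested genes is drawn alongside. Vacuolar hydrolases lie highest with a median of 1.53, and the spindle pole body lies lowest with a median of -1.01.

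Genes of the vacuole, the lysosome of yeast, had the highest median of the 68 lists. Of 17 vacuolar hydrolases and their inhibitors 15 rose and 1 fell; the median log2 change was 1.53. PRB1, the vacuolar proteinase B (chromosome V, 40046 to 41953), was at 386, 507 and 323 FPKM unstimulated and at 2739, 2649 and 2988 FPKM stimulated. The stimulated libraries lay far above all unstimulated ones (log2 change 2.80 ± 0.16, limma adjusted p = 4.7e-08). AMS1, the vacuolar α-mannosidase, was at 48.6, 44.8 and 48.7 FPKM and rose to 368, 367 and 406 FPKM, again with no overlap (log2 change 2.98 ± 0.11). PEP4, the proteinase A that activates the others, had a log2 change of 1.71 ± 0.07, and APE1, aminopeptidase I, one of 1.53 ± 0.08. The inhibitors rose with the enzymes they bind: PBI2, the inhibitor of proteinase B, by 1.59, PAI3, that of proteinase A, by 1.75, and TFS1, that of carboxypeptidase Y, by 2.07. YPS1, an aspartyl protease that sits at the cell surface and not in the vacuole, rose by 2.02. PHO8, the vacuolar alkaline phosphatase, was the member that fell, by 0.31 on the log2 scale, a call lost with rescaling by median ratios and with quantile normalisation. The pump that acidifies the vacuole did not follow the hydrolases: of 20 V-ATPase genes 1 rose, or 2 without unstimulated replicate 2, and 11 fell, or 7 with rescaling by median ratios. The 1 that rose was STV1, the subunit a form of the Golgi and endosome (0.39 ± 0.09), while VPH1, the vacuolar form, had a log2 change of -0.29 ± 0.09, a call that is lost with that rescaling and without unstimulated replicate 2.

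Autophagy genes rose too. In autophagy, double membranes enclose cytoplasm and carry it to the vacuole. Of the 36 listed genes 27 rose, 1 fell and 8 missed the threshold; the median log2 change was 0.62. ATG8, the ubiquitin-like protein bound to the growing membrane (chromosome II, 80378 to 80731), was at 172, 143 and 132 FPKM unstimulated and 875, 863 and 731 FPKM stimulated. All 3 stimulated values were above all unstimulated ones (log2 change 2.46 ± 0.11, limma adjusted p = 7.97e-09). Among the cargo receptors, ATG19, the receptor of aminopeptidase I, rose from 154, 159 and 159 to 600.1, 591 and 571 FPKM, and ATG39 and ATG40, the receptors for parts of the nucleus and the endoplasmic reticulum, had log2 changes of 1.64 ± 0.19 and 1.37 ± 0.14. ATG34, a receptor of α-mannosidase, had a change of 2.24 but overlaps another listed gene, so its value is uncertain. The starting kinase ATG1 rose by 0.52 and its partners ATG17, ATG29 and ATG31 by 0.81, 1.55 and 0.98, of which ATG29 also overlaps another gene. The gene that fell was ATG10, an enzyme that joins Atg12 to Atg5, by 0.42 on the log2 scale, a call lost with rescaling by median ratios and without replicate 1 or 3 of either group; ATG32, the receptor for mitochondria, did not pass (0.25 ± 0.13).

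Proteasome genes that changed rose slightly. The proteasome, a barrel-shaped protease, degrades proteins tagged with ubiquitin. Of the 14 core particle genes 9 rose and none fell; the median was 0.22. Of the 19 regulatory particle genes 14 rose and none fell, with a median of 0.19; the 14 became 8 without stimulated replicate 1 and 7 without unstimulated replicate 3. PRE2, the chymotrypsin-like subunit, was at 1754, 1762 and 1874 FPKM and then at 2202, 2407 and 2243 FPKM, 2 narrow ranges that do not overlap (log2 change 0.35 ± 0.08, limma adjusted p = 0.00177). RPN2, a large subunit of the base, rose by 0.31 ± 0.06 and RPN12, of the lid, by 0.34 ± 0.06. UBI4, the polyubiquitin gene (chromosome XII, 64062 to 65207), changed by far more, from 1020.1, 1286 and 1026 FPKM to 4181, 4034 and 4152 FPKM (log2 change 1.90 ± 0.09). UBC5, a ubiquitin-conjugating enzyme, rose by 1.58 ± 0.10, whereas its close relative UBC4 did not pass (0.02 ± 0.10). Among the 27 assembly and ubiquitin genes 17 rose and 5 fell. POC4, IRC25 and CUZ1, the first 2 of them assembly chaperones of the core, fell by 0.78, 0.58 and 0.55 on the log2 scale.

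Promoters of proteasome genes carry the proteasome-associated control element, which the transcription factor Rpn4 binds. The letters GGTGGCAAA were searched on both strands of the 300 bases before the start codon of 5866 protein genes, in RefSeq assembly R64, and were found in 1.23% of them. They were found in 12 of the 14 core particle genes and in 15 of the 19 regulatory particle genes. RPN4 itself rose by 0.42 ± 0.11. Of all 72 genes with the element 56.9% rose, against 29.9% of the 5794 without it. The 72 include the proteasome genes just described, and the share among the others was not counted. Such a match describes the letters in the window and is not evidence of binding. Stretches of 3 promoters are shown, each 5′ to 3′ on the strand of its gene, with the element in capitals, because PRE2 and RPN2 rose slightly and UBI4 strongly with the same element at a like distance from the start codon. They lie at chrXVI:732169-732228, plus strand for PRE2, at chrIX:220801-220850, minus strand for RPN2 and at chrXII:65338-65397, minus strand for UBI4, whose copy is on the opposite strand. The first base of the element lies 155, 119 and 160 bases before the start codon.
PRE2: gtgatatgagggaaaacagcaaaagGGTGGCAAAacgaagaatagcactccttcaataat
RPN2: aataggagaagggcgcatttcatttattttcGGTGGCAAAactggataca
UBI4: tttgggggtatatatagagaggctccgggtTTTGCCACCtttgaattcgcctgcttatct

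Most genes of endocytosis rose. Of 45 genes of actin patches, the sites where membrane is taken up, 40 rose and none fell; the median log2 change was 0.70. RVS161, an amphiphysin-like protein that pinches off the vesicle and is also needed for mating cells to fuse (chromosome III, 130745 to 131542), was at 1064, 983 and 836 FPKM and rose to 4869, 4789 and 4351 FPKM. The groups lie far apart (log2 change 2.28 ± 0.09, limma adjusted p = 2.73e-09). Its partner RVS167 rose by 0.88 ± 0.08, the actin filament binding protein ABP1 by 1.16 ± 0.18 and the type I myosin MYO3 by 1.24 ± 0.15. All 7 listed genes of the Arp2/3 complex, which nucleates branched actin, rose: ARP2, ARP3, ARC15, ARC18, ARC19, ARC35 and ARC40 changed by 0.65 to 0.83. ACT1, actin, had a log2 change of 0.57 ± 0.07. INP52, a phosphoinositide phosphatase, and BBC1, a regulator of patch assembly, changed by 2.12 and 1.23, but both overlap another listed gene. The members that did not pass were END3, BZZ1, PAN1, CRN1 and CHC1, with log2 changes between -0.07 and 0.32.

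Sorting from the endosome to the vacuole changed in the same direction. Of 21 genes listed for retromer, HOPS, CORVET and the SNAREs and sorting receptor of this route 13 rose and 2 fell, with a median of 0.29. The members that rose by 2-fold or more were PEP12, PEP1, NYV1 and VTI1, none of them a subunit of those complexes. PEP12, the syntaxin of the late endosome, was at 288, 257 and 220.2 FPKM and then at 1061, 1065 and 931 FPKM, with no overlap (log2 change 2.00 ± 0.13, limma adjusted p = 1.54e-07). The vacuolar SNARE genes NYV1 and VTI1 rose by 1.05 ± 0.09 and 1.03 ± 0.08, while VPS33, of the tethering complex, and the SNARE gene VAM7 fell by 0.20 and 0.32. No call of a lower member remained with rescaling by median ratios, with the 6 MATa libraries alone, without stimulated replicate 2 or without unstimulated replicate 1, and at most 1 without any other replicate. Of 32 arrestins and ubiquitin sorting genes 15 rose and 2 fell. ECM21, an arrestin-like adaptor that brings a ubiquitin ligase to permeases, rose by 1.17 ± 0.16, and VPS36 and VPS60, which act in sorting into the multivesicular body, by 0.83 ± 0.09 and 0.88 ± 0.08. The adaptors LDB19 and BUL2 fell, each by 0.20; no call of a lower member remained with rescaling by median ratios or without stimulated replicate 1 or 2 or unstimulated replicate 3, and 1 remained without unstimulated replicate 2. In the exocyst and docking list 6 of 23 rose and 1 fell, or 2 without stimulated replicate 1 or unstimulated replicate 3, with the vesicle SNARE SNC1 up by 0.73 ± 0.11 and the plasma membrane SNARE SSO2 lower by 0.48.

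Eisosomes are furrows under the plasma membrane. Of 14 genes 5 rose and 5 fell, shares near those of all genes, and single members had large changes in each direction. SUR7, a membrane protein of the furrow (chromosome XIII, 170402 to 171310), was at 1441, 1377 and 1623 FPKM and fell to 178, 181 and 183 FPKM. The stimulated values lie close together and far below the unstimulated ones (log2 change -3.02 ± 0.11, limma adjusted p = 1.75e-09). NCE102, another membrane protein of the furrow, fell from 3857, 4052 and 4495 to 864, 949 and 734 FPKM, and its relative FHN1 by 0.98 on the log2 scale. FMP45, a relative of SUR7, and PUN1, found in the same membrane patches, went the other way: FMP45 rose from 33.0, 31.5 and 33.2 to 204, 241 and 206 FPKM and PUN1 from 544, 617 and 389.6 to 2114, 2222 and 1984 FPKM. The core proteins that bend the membrane split as well, with PIL1 at -0.38 ± 0.06 and LSP1 at 0.54 ± 0.07. The kinases PKH1 and PKH2, which phosphorylate them, rose by 0.40 ± 0.07 and 0.61 ± 0.07, the latter overlapping another listed gene.

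Genes for the use of carbon sources other than glucose rose although the medium was made with glucose. Of 25 genes of gluconeogenesis, the glyoxylate cycle and acetate use 21 rose and 1 fell; the median was 1.37. ADY2, an acetate transporter (chromosome III, 132273 to 133124), was at 25.1, 20.8 and 20.7 FPKM unstimulated and at 153, 161 and 157 FPKM stimulated, so the groups lie far apart (log2 change 2.77 ± 0.09, limma adjusted p = 8.08e-10). ALD4, the mitochondrial acetaldehyde dehydrogenase, rose from 214, 196 and 291 to 1142, 1377 and 1335 FPKM. JEN1, the lactate transporter, rose by 1.91 ± 0.14, MLS1, malate synthase, by 1.69 ± 0.31, ICL1, isocitrate lyase, by 0.83 ± 0.23 and PCK1, which starts gluconeogenesis, by 1.37 ± 0.38. FBP1, fructose-1,6-bisphosphatase, the other enzyme particular to gluconeogenesis, did not pass (0.08 ± 0.34). The activators CAT8 and SIP4 rose by 1.52 ± 0.15 and 1.67 ± 0.21. ADR1, the activator of alcohol and fatty acid use, rose by 1.97 ± 0.12, but ADH2, the alcohol dehydrogenase it is known to control, did not pass (-0.23 ± 0.10). The gene that fell was ATO3, of the same transporter family as ADY2, by 1.22, and 2 fell without unstimulated replicate 1 or 3. In the list of Snf1 and glucose repression 3 of 18 rose and 9 fell. The repressor genes MIG1 and MIG3 fell by 0.85 and 1.58, while MTH1, which keeps hexose transporter genes off without glucose, rose by 1.27 ± 0.15.

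Many enzymes of central metabolism exist as a pair, with a major form and a form known from stress or poor carbon. Of 47 such pairs 13 had opposite calls, in 11 of which the first, usually major, form fell and the second rose; in 13 both rose and in 3 both fell. The share of the form that was less abundant without α-factor was higher in all 3 stimulated libraries than in all unstimulated ones for 35 pairs and lower for 7, and the groups overlapped for 5. These shares are of summed FPKM, which is per length, and some pairs share a member. NQM1, the second transaldolase (chromosome VII, 580435 to 581436), was at 32.8, 26.8 and 45.8 FPKM and rose to 835, 887 and 793 FPKM, the largest rise within the 68 lists among members with at least 10 FPKM in a group (log2 change 4.57 ± 0.17, limma adjusted p = 1.68e-09). TAL1, the main transaldolase, had a change of -0.25 ± 0.07, a call that is lost with 2 other scalings. NQM1 thus went from 0.847, 0.670 and 1.09 to 20.7, 19.9 and 19.2 percent of the pair.

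In the pentose phosphate pathway, which makes NADPH and ribose, 10 of 22 genes rose and 11 fell, or 7 fell with rescaling by median ratios. Those that rose included the minor forms: SOL4, a 6-phosphogluconolactonase, from 16.8, 23.5 and 14.4 to 80.7, 110.0 and 76.8 FPKM, and GND2, a 6-phosphogluconate dehydrogenase, from 20.2, 16.6 and 20.9 to 71.0, 71.5 and 86.6 FPKM. The major forms SOL3 and GND1 had changes of -0.39 ± 0.06 and -0.18 ± 0.10, the latter not past the threshold and of a gene that overlaps another. ZWF1, the first enzyme of the pathway, has no second form and rose by 0.91 ± 0.14. All 5 PRS genes, for phosphoribosyl pyrophosphate, the start of nucleotide synthesis, fell, by 0.20 to 0.55.

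Glycerol synthesis showed the same pattern. GPD1 and GPD2 are the 2 forms of glycerol-3-phosphate dehydrogenase and GPP1 and GPP2 those of its phosphatase. GPD1, the form induced by osmotic stress, rose from 430.5, 586 and 519 to 2178, 2518 and 2677 FPKM, GPD2 fell by 0.53 on the log2 scale, and the share of GPD1 went from 24.3, 25.4 and 24.4 to 69.1, 71.8 and 67.6 percent. GPD1 overlaps another listed gene, so its level is uncertain. GPP2 was at 384, 502 and 470.1 FPKM and then at 1618, 1829 and 1683 FPKM, and its share went from 3.11, 3.07 and 3.37 to 17.9, 17.7 and 16.8 percent. The osmotic list as a whole was split, with 10 of 26 genes higher and 6 lower. PTP2, a phosphatase of the Hog1 MAP kinase, rose by 1.55 ± 0.24, HOG1 itself fell by 0.54, and the membrane sensors SLN1 and SHO1 fell, each by 0.38.

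Other pairs followed. HXK1, the minor hexokinase, rose from 258, 338 and 195 to 1517, 1563 and 1481 FPKM, while HXK2, the main one, had a change of -0.02 ± 0.05 that did not pass and that turned positive and passed with quantile normalisation. HXK1 overlaps another listed gene, so its value is uncertain. PYK2, the minor pyruvate kinase, took 0.344, 0.243 and 0.276 percent of its pair without and 2.93, 2.89 and 2.26 percent with α-factor, and PYC1, a pyruvate carboxylase, 40.5, 39.2 and 53.3 and 62.7, 60.8 and 69.1 percent. GSC2, the second glucan synthase, went from 7.11, 5.96 and 6.55 to 52.6, 52.0 and 52.9 percent of its pair with FKS1, and HSP82, the inducible Hsp90, from 8.74, 7.42 and 7.75 to 21.9, 23.0 and 21.2 percent of its pair with HSC82. Not all pairs moved like this. In 7 the form that was less abundant without α-factor lost share in all stimulated libraries: EMI2 with GLK1, NTH2 with NTH1, SNZ2 with SNZ1, YHL012W with UGP1, AAC3 with PET9, GRX2 with GRX1 and ORM1 with ORM2. SNZ2, of vitamin B6 synthesis, has a near-identical copy, SNZ3, so its value is uncertain; it went from 40.7, 34.7 and 28.4 to 10.2, 8.53 and 6.91 percent of its pair. EMI2, a paralog of the glucokinase GLK1, went from 47.7, 41.4 and 45.6 to 29.6, 27.6 and 28.1 percent, although both rose, by 1.42 ± 0.08 and 2.45 ± 0.10; GLK1 overlaps another listed gene. NTH2, a trehalase, went from 31.5, 24.6 and 23.5 to 15.7, 14.6 and 14.9 percent. PMA1 and PMA2, the proton pumps, both fell with overlapping shares, and GLG1 and GLG2, which prime glycogen, did not pass.

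**Figure D2:**
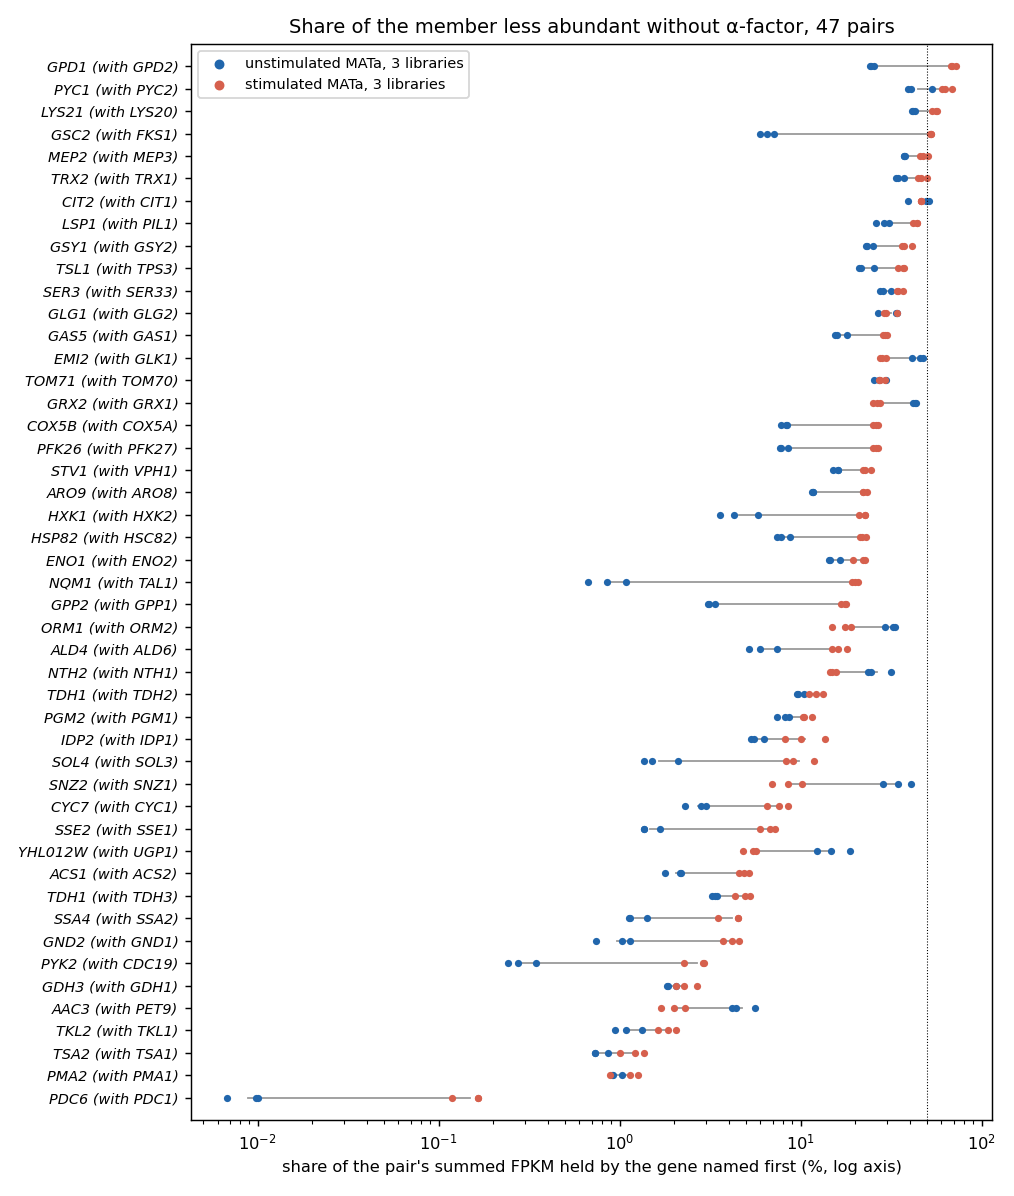
Share of the pair's summed FPKM (percent, log axis) taken by the member that was less abundant without α-factor, for 47 pairs; dots are the 3 unstimulated and the 3 stimulated MATa libraries and the dotted line marks 50%. In 35 pairs all stimulated dots lie to the right of all unstimulated ones, among them GPD1, GSC2 and NQM1.

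Stretches of the promoters of NQM1, GLK1 and TSL1, the last a trehalose synthase subunit that rose by 1.81 ± 0.14, are shown because each holds several copies of the stress response element, AGGGG, which Msn2 and Msn4 bind. That of RVS161, with 1 copy, is set beside them as a gene of another function that rose. Copies of AGGGG or its complement CCCCT are in capitals, and each stretch is given on the strand of its gene, 5′ to 3′. They lie at chrVII:581577-581636, minus strand for NQM1, at chrIII:50638-50697, plus strand for GLK1, at chrXIII:70384-70473, plus strand for TSL1 and at chrIII:131683-131742, minus strand for RVS161. The 2 copies of NQM1 start 176 and 165 bases before its start codon, the 3 of GLK1 182, 174 and 167, the 3 of TSL1 231, 179 and 165, and the copy of RVS161 171.
NQM1: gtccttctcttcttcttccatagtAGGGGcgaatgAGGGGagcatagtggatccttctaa
GLK1: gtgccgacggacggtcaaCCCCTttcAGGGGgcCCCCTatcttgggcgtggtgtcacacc
TSL1: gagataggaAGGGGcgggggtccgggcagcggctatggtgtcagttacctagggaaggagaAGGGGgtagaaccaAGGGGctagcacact
RVS161: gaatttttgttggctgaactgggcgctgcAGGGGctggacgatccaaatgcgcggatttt

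Over all genes, changes went with the number of these elements in the window of 300 bases. At least 1 copy was present in 22.3% of the 5866 promoters, in 44.4% of the 594 of genes that rose by 2-fold or more, in 19.9% of the 1808 of genes that did not pass and in 15.2% of the 402 of genes that fell by 2-fold or more. Of the 4556 genes with no copy 25.5% rose, of the 1108 with 1 copy 44.6%, of the 169 with 2 copies 56.8% and of the 33 with 3 or more 66.7%. The median log2 changes of these classes were -0.15, 0.18, 0.53 and 0.85. Among the lists, 12 of the 17 vacuolar hydrolase promoters, 26 of the 45 of actin patches and 17 of the 34 of oxidative stress defence held a copy, the highest shares of all lists. In autophagy 10 of 36 did, and lists without more members higher than lower had it too, in 10 of 22 for the pentose phosphate pathway and 6 of 14 for eisosomes. The pheromone response element TGAAACA, which Ste12 binds, was in 7.18% of all promoters, in 8.59% of those of genes that rose by 2-fold or more and in 4.23% of those of genes that fell by 2-fold or more. Copies that overlap each other were counted singly, and divergently transcribed neighbours can share a window.

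Defence against oxidants and aldehydes rose in part. Of 34 oxidative stress genes 21 rose and 4 fell, with a median of 0.60. GRX3, a glutaredoxin that acts in iron regulation (chromosome IV, 644178 to 645035), was at 888, 761 and 805 FPKM and rose to 5644, 5609 and 5747 FPKM. Its paralog GRX4 moved the other way, from 499, 453 and 455 to 237, 250.2 and 214 FPKM, and for neither gene did the groups overlap (limma adjusted p = 1.32e-10 and 1.32e-06). GTT1, a glutathione transferase, rose by 2.08 ± 0.08, PRX1, the mitochondrial peroxiredoxin, by 1.80 ± 0.10 and CTT1, the cytosolic catalase, by 1.57 ± 0.14. YAP1, the main regulator of the oxidant response, did not pass (-0.02 ± 0.05), and TRR1 and TRX1, thioredoxin reductase and thioredoxin, fell by 0.32 and 0.35. The Yap1 element TTACTAA was in 7.82% of all promoters and in 7.24% of those of genes that rose by 2-fold or more. Of 15 aryl-alcohol and aldehyde reductases 11 rose and none fell, with GRE3, the aldose reductase, up from 288, 330.2 and 272 to 1014, 1077 and 1003 FPKM.

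Among genes of ion transport, PMA1, the proton pump that is among the most abundant proteins of the plasma membrane (chromosome VII, 479910 to 482666), fell from 10723, 14258 and 11219 to 4676, 4282 and 4906 FPKM, with no overlap (log2 change -1.38 ± 0.13, limma adjusted p = 2.1e-06). PMP1 and PMP2, small proteins that regulate the pump, fell by 0.71 and 1.44, and PMA2, its minor form, by 1.16. PTK2, a kinase that activates the pump, rose by 0.67 ± 0.11. ENA1, the sodium pump, rose by 1.39 ± 0.09; ENA2 and ENA5 are near-identical to it and their values are uncertain. Of 29 multidrug resistance genes 9 rose and 8 fell, or 5 fell with rescaling by median ratios, which is no more often than over all genes for those that fell and close to it for those that rose. RTA1, a membrane protein of the lipid translocating exporter family, rose from 78.7, 78.5 and 71.2 to 616, 573 and 601 FPKM and TPO4, a polyamine exporter, by 1.85 ± 0.17, while PDR12, the weak acid exporter, fell from 132, 185 and 144 to 53.7, 48.4 and 48.1 FPKM. Among the copper genes CTR1, the uptake transporter, and the metallothionein copies CUP1-1 and CUP1-2 had changes of -1.93, -1.61 and -1.59; all 3 overlap another listed gene and the copies are near-identical.

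Amino acid and nitrogen genes moved in both directions. PUT1, proline oxidase (chromosome XII, 425186 to 426616), was at 69.5, 53.2 and 54.7 FPKM and rose to 534, 609 and 477 FPKM, with no overlap (log2 change 3.17 ± 0.14, limma adjusted p = 6.42e-09). The next enzyme, PUT2, rose by 0.65 ± 0.05 and the proline permease PUT4 by 1.45 ± 0.18, while PUT3, their activator, fell by 0.62, and PRO1, the first step of proline synthesis, by 0.48. The 3 genes of the route from glutamate through γ-aminobutyrate to succinate all rose. GAD1, glutamate decarboxylase, went from 46.6, 56.2 and 43.5 to 356, 333 and 293 FPKM, and the transaminase UGA1 and dehydrogenase UGA2 had changes of 1.43 ± 0.07 and 1.07 ± 0.08. Of 21 genes of nitrogen catabolite repression 10 rose and 4 fell, or 2 fell without overlapping genes. DAL1, allantoinase, DAL4, the allantoin permease, and MEP1, an ammonium permease, rose by 1.25 ± 0.13, 1.19 ± 0.10 and 1.28 ± 0.07, while MEP3, another ammonium permease, fell by 0.74. DAL80, a repressor of this group, changed by 2.46 but overlaps another listed gene.

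Of 33 permease genes 11 rose and 8 fell, with a median of 0.02; over all genes a larger share fell and a similar one rose. TAT1, a permease of tyrosine and other large amino acids, fell from 1261, 1376 and 1276 to 401, 399 and 456 FPKM, and OPT1, an oligopeptide transporter, by 1.11 on the log2 scale. MUP1 and MUP3, the methionine permeases, rose by 1.14 ± 0.17 and 1.52 ± 0.12. For aromatic amino acids 7 of 11 genes rose and 2 fell. ARO10, the decarboxylase of the route from aromatic amino acids to fusel alcohols, rose from 282, 263 and 237 to 1091, 1147 and 1069.9 FPKM (log2 change 2.08 ± 0.09), and ARO9, its aminotransferase, which overlaps another gene, had a change of 1.34. CHA1, the serine and threonine deaminase induced by those amino acids, fell from 968, 1376 and 989 to 344, 356 and 374 FPKM. SHM2, the cytosolic serine hydroxymethyltransferase, rose by 0.57 ± 0.07 while SHM1, the mitochondrial form, had a change of -0.21 ± 0.09. In lysine synthesis LYS20 and LYS4 fell by 0.93 and 0.77 while LYS1, the last step, rose by 0.92 ± 0.09; 2 genes of this list rose without replicate 1 of either group.

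Within the short pathway of histidine synthesis, 5 of 7 genes rose and 1 fell. HIS4, which catalyses several of its steps (chromosome III, 65934 to 68333), was at 327, 279 and 273 FPKM and rose to 941, 877 and 781 FPKM, and HIS5, the aminotransferase, rose from 393, 351 and 394 to 837, 884 and 805 FPKM. HIS6, the isomerase (chromosome IX, 314035 to 314820), fell from 371, 338 and 355 to 137, 113 and 118 FPKM. None of these groups overlapped (log2 changes 1.56 ± 0.09, 1.15 ± 0.08 and -1.53 ± 0.08, limma adjusted p = 4.66e-08, 2.35e-07 and 1.8e-08). HIS6 overlaps another listed gene, so reads of that gene cannot be told apart from its own. The promoters of HIS4 and HIS6 are shown because they differ in their elements. That of HIS4, at chrIII:68494-68553, minus strand, holds the Gcn4 element TGACTCA, whose first base is 199 bases before the start codon and which was found in 4 of the 7 histidine promoters and in 2.63% of all. That of HIS6, at chrIX:314981-315040, minus strand, holds the PAC element GCGATGAG, here on the opposite strand, and the RRPE element AAAATTTT, which are both known from ribosome biogenesis genes, 197 and 187 bases before the start codon. The elements are in capitals, 5′ to 3′ on the strand of the gene.
HIS4: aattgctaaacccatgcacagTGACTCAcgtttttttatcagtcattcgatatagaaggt
HIS6: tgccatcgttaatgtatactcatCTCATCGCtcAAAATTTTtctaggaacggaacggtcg

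Vitamin genes showed single large changes. SNZ1, for pyridoxine synthesis, was at 109, 113 and 146 FPKM and rose to 822, 921 and 1108 FPKM, with no overlap (log2 change 2.94 ± 0.16, limma adjusted p = 3.57e-08), and its neighbour SNO1, which works with it, rose by 1.03 ± 0.18. In the thiamine and pyridoxine list 12 of 23 rose and 5 fell, or 3 fell with rescaling by median ratios, with the 6 MATa libraries alone, without stimulated replicate 3 or without unstimulated replicate 1. THI4, for the thiazole part of thiamine, rose by 1.68 ± 0.22; THI5 and THI12, near-identical genes for the pyrimidine part, had changes of 1.90 and 1.95; PHO3, a phosphatase known to act on thiamine phosphates, fell from 1169.7, 1407 and 1238 to 347, 384 and 395 FPKM. The genes of NAD synthesis from tryptophan included BNA1 and BNA4, up by 1.29 ± 0.08 and 0.87 ± 0.10. PNC1, the nicotinamidase of NAD salvage, rose from 617, 617 and 564 to 2469, 2783 and 2344 FPKM. BNA2, the first step from tryptophan, changed by 2.86 but overlaps another listed gene. BIO2, biotin synthase, fell by 1.39, and NMA1, which joins nicotinate nucleotide to AMP, by 0.55. Pyrimidine genes fell: of 20, 15 fell and 1 rose, with a median of -0.51. FCY2, the cytosine and purine permease, fell from 3485, 4215 and 3528 to 1654, 1597 and 1505 FPKM, DUT1, the dUTPase, by 1.18 and FUR1, the uracil salvage enzyme, by 0.86. The gene that rose was URA8, the minor CTP synthase (0.51 ± 0.07).

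In the fatty acid and neutral lipid list 11 of 25 rose and 8 fell. ELO1, which elongates medium-chain fatty acids (chromosome X, 67850 to 68782), fell from 743, 700.0 and 809 to 141, 159 and 141 FPKM, with no overlap (log2 change -2.35 ± 0.08, limma adjusted p = 6.8e-10). ELO2 and ELO3, which make the very long chains of sphingolipids, fell by 1.00 and 0.99. OLE1, the desaturase, fell by 1.01 and ACC1, which starts fatty acid synthesis, by 0.69, whereas the synthase subunit FAS2 rose by 0.42 ± 0.16 and FAS1 did not pass (-0.17 ± 0.14). The activating enzymes FAA4 and FAA3 fell by 1.49 and 1.01 while FAA1, which acts on the same chains, rose by 0.98 ± 0.07. In sphingolipid synthesis LAC1 and LAG1, of ceramide synthase, fell by 0.92 and 0.54, AUR1, which adds inositol phosphate, by 0.86, and SUR2, the hydroxylase, by 0.98. Genes that break ceramides and complex sphingolipids down rose: ISC1, a phospholipase C, from 297, 330.3 and 279 to 1183, 1239.6 and 1233 FPKM, and the ceramidases YPC1 and YDC1 by 1.86 ± 0.18 and 0.90 ± 0.14. Over the whole sphingolipid list 10 of 31 rose and 12 fell. Of 20 genes of fatty acid oxidation in peroxisomes 10 rose and 2 fell, with a median of 0.30. CAT2, the carnitine acetyltransferase, rose by 1.60 ± 0.12, and CTA1, the peroxisomal catalase, fell by 0.64. Of 28 peroxin (PEX) genes 8 rose, a share near that of all genes, and 4 fell, or 1 with rescaling by median ratios. Their median was 0.12. Only PEX27 and PEX34, which control peroxisome number, rose by 2-fold or more, by 1.64 ± 0.12 and 1.46 ± 0.10.

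Glycosylation genes were mostly lower. Of 31 N-glycosylation genes 18 fell and 4 rose, and of 31 mannosyltransferase and O-mannosylation genes 21 fell and 6 rose, with medians of -0.31 and -0.35. MNN1, which adds the terminal α-1,3-mannose in the Golgi, fell from 513, 568 and 412 to 94.7, 103 and 80.2 FPKM, with no overlap (log2 change -2.41 ± 0.11, limma adjusted p = 1.15e-08). The enzymes that supply GDP-mannose fell too: SEC53, phosphomannomutase, by 1.07, PMI40, phosphomannose isomerase, by 0.98, and VRG4, the transporter into the Golgi, by 1.16. KTR2, a mannosyltransferase, rose from 149.6, 189 and 155 to 838, 810.3 and 718 FPKM. ALG13 and ALG14, which together form 1 enzyme, moved apart, with log2 changes of 1.06 ± 0.10 and -1.47 ± 0.10. In the list of translocation and folding in the endoplasmic reticulum 11 of 39 genes rose and 15 fell, or 16 and 13 with rescaling by median ratios. The translocon gene SSS1 fell by 0.94 and SRP72, of the signal recognition particle, by 0.66, while the chaperone KAR2, which also acts when nuclei fuse, rose by 0.45 ± 0.12.

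Genes of translation fell almost throughout. Of 133 entries in 5 lists of translation 114 fell and 3 rose. Of 29 initiation genes 23 fell and 1 rose, with a median of -0.57. TIF5, the initiation factor eIF5 (chromosome XVI, 648704 to 649921), was at 2576, 2716 and 2599 FPKM and fell to 1495, 1488 and 1496 FPKM, with no overlap (log2 change -0.82 ± 0.06, limma adjusted p = 4.4e-07). GCD11, the γ subunit of eIF2, fell by 0.71, and TIF4632, the minor form of eIF4G, was the gene that rose (0.29 ± 0.11), while the major form TIF4631 fell by 0.57. The call of TIF4632 was lost without replicate 1 or 3 of either group, and without stimulated replicate 2 there were 2 genes that rose. Of 17 elongation and termination genes 15 fell, or 8 with quantile normalisation, and 1 rose. YEF3, elongation factor 3, was at 12255, 15430.0 and 12908 FPKM and at 8428, 7542 and 8720.0 FPKM, again without overlap (log2 change -0.71 ± 0.11, a call lost with quantile normalisation). HEF3, its minor form, which overlaps another gene, was the one that rose (0.31 ± 0.12), a call lost with quantile normalisation, with a minimum mean of 10 FPKM, with the 6 MATa libraries alone, and without stimulated replicate 1 or 3 or unstimulated replicate 1 or 2. No gene of 20 tRNA synthetases rose and 17 fell, CRS1, the cysteinyl enzyme, most, by 0.74. No gene of 22 chaperones of new chains rose and 19 fell, or 12 without genes that overlap another.

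Genes of tRNA modification and of RNA processing and transport fell more often than they rose. Of 45 tRNA modification genes 40 fell and 1 rose, with a median of -0.72. TRM1, which methylates a guanosine of tRNA, fell from 896, 838 and 927 to 378, 403 and 404 FPKM, with no overlap (log2 change -1.16 ± 0.06, limma adjusted p = 3.9e-08). DUS1, which makes dihydrouridine, fell by 1.14 and TYW1, of wybutosine synthesis, by 1.12; TRM12, of the same route as TYW1, was the gene that rose (0.20 ± 0.08), a call lost without stimulated replicate 1 or 3 or unstimulated replicate 2. Of 21 RNA polymerase III genes 15 fell and none rose, or 1 with rescaling by median ratios. RPC31, a subunit particular to this polymerase, fell from 1156, 1131 and 1201 to 569.6, 575 and 605 FPKM, and RPC25 by 0.91. MAF1, the repressor of this polymerase, did not pass (0.04 ± 0.08). Of 20 exosome and nuclear RNA processing genes 17 fell and 1 rose. LRP1, a cofactor of the nuclear exosome, fell from 1044, 864 and 963 to 379, 371 and 382 FPKM, and the helicase MTR4 and poly(A) polymerase TRF5, which feed RNA into it, by 1.11 and 1.04. Of 47 nuclear pore and karyopherin genes 33 fell and 1 rose; KAP123, which imports ribosomal proteins, fell by 0.96, and MSN5, an exporter of phosphorylated proteins, was the gene that rose (0.63 ± 0.09); without unstimulated replicate 3 the count that rose was 2. Of 58 spliceosome genes 29 fell and 4 rose, and of 33 of mRNA decay 22 fell and 1 rose.

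A pair of promoter elements, PAC and RRPE, was counted next. PAC was found in 4.14% of all 5866 promoters, in 18.7% of those of genes that fell by 2-fold or more and in 0.842% of those of genes that rose by 2-fold or more. RRPE was found in 9.51%, 26.9% and 2.69%. In 121 promoters both were present, and of those genes 112 fell and 3 rose, with a median log2 change of -0.94. With PAC alone 70.5% of 122 genes fell, with RRPE alone 65.4% of 437, and with neither 34.7% of 5186. Ribosome biogenesis genes are among those with both, and members outside that class are shown here: RPC25 of RNA polymerase III, at chrXI:176642-176701, minus strand, and FUR1 of uracil salvage, at chrVIII:361825-361924, plus strand. PAC, on the opposite strand, and RRPE are in capitals, 5′ to 3′ on the strand of the gene. In RPC25 their first bases lie 194 and 184 bases before the start codon, 10 apart as in HIS6, and in FUR1 276 and 208. Of the 121 promoters, 94 had the first bases of both within 25 bases of each other, and 10 had them exactly 10 apart. The median distance over the 121 was 16.
RPC25: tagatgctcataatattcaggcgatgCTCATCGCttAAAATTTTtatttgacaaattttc
FUR1: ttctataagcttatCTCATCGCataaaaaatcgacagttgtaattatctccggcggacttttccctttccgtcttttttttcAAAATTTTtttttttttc

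RRPE was also in 13 of the 17 promoters of elongation and termination genes, in 14 of the 29 of initiation genes and in 12 of the 20 of tRNA synthetases, but in 7 of the 58 of spliceosome genes and 3 of the 33 of mRNA decay. PAC was in 6 of the 21 promoters of RNA polymerase III, 8 of the 45 of tRNA modification, 1 of the 58 of spliceosome genes and none of the 33 of mRNA decay. The G1/S elements MCB, ACGCGT, and SCB, CGCGAAA, were in 3.51% and 3.99% of all promoters and in 9.70% and 13.2% of those of genes that fell by 2-fold or more.

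**Figure D3:**
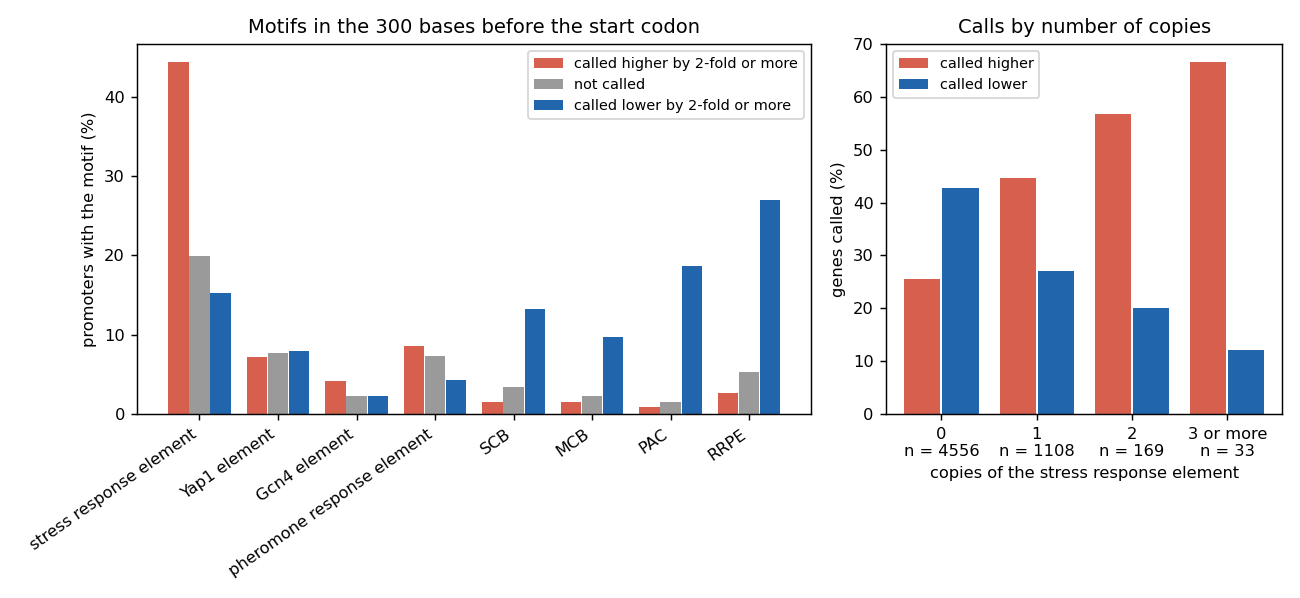
Left, percent of promoters (300 bases before the start codon) with each of 8 motifs, for genes that rose by 2-fold or more, that did not pass, and that fell by 2-fold or more; right, percent of genes called higher or lower by the number of stress response elements. The stress response element is in 44.4% of the promoters of genes that rose by 2-fold or more, and RRPE in 26.9% of those of genes that fell by as much.

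Mitochondrial genes divided by function. Of 74 genes of the mitochondrial ribosome 59 fell and 1 rose, with a median of -0.34. MRPL8 and MRPL15, of the large subunit, fell by 0.81 and 0.80, and RSM10, of the small subunit, was the gene that rose (0.51 ± 0.11); without unstimulated replicate 1 the count that rose was 2. Of 39 import and folding genes 23 fell and 3 rose, or 5 rose with rescaling by median ratios. TIM10, a chaperone of the space between the membranes, fell from 3944, 3533 and 3472 to 1722, 1601 and 1247 FPKM, while HSP78, which dissolves aggregates in the matrix, rose from 183, 165 and 139.5 to 431, 402 and 407 FPKM (log2 changes -1.27 ± 0.14 and 1.35 ± 0.13, limma adjusted p = 7.78e-06 and 3.91e-06). For coenzyme Q and iron-sulfur clusters, by contrast, 15 of 24 genes rose and 3 fell, or 1 fell without overlapping genes. COQ6 and COQ5, of coenzyme Q synthesis, rose by 0.98 ± 0.07 and 0.64 ± 0.06, and ISD11, which holds the sulfur-donating enzyme, by 1.15 ± 0.08. In the list of heme and hypoxic genes 5 of 25 rose and 9 fell, with a median of -0.24. CYC7 and COX5B, minor forms of respiratory proteins, rose by 1.39 ± 0.22 and 1.76 ± 0.14, and HMX1, heme oxygenase, by 1.82 ± 0.13, while TIR1, a cell wall protein, and AAC3, an ADP/ATP carrier, fell by 1.60 and 0.99, and the heme synthesis genes HEM3, HEM12 and HEM1 by 0.92, 0.82 and 0.79.

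Several lists of chromatin and division genes, beyond the histones and cyclins, had mostly lower members. Of 17 spindle pole body genes 14 fell and 2 rose, with a median of -1.01. BBP1, which helps to fix the pole body in the nuclear envelope (chromosome XVI, 67725 to 68882), was at 153, 130.2 and 159 FPKM and fell to 38.3, 33.1 and 34.0 FPKM, with no overlap (log2 change -2.04 ± 0.10, limma adjusted p = 1.8e-08). SPC97 and TUB4, of the complex that nucleates microtubules, fell by 1.80 and 1.30, and the half-bridge gene KAR1, which also serves nuclear fusion in mating, by 1.54. The summed FPKM of the list was 4496 to 4720.0 unstimulated and 4129 to 4366 stimulated. CMD1, calmodulin, and NBP1 were the members that rose, by 0.29 ± 0.07 and 0.49 ± 0.10; NBP1 overlaps another listed gene. Of 50 kinetochore and checkpoint genes 28 fell and 5 rose, or 8 rose with rescaling by median ratios. SPC24 and BUB3 fell by 1.29 and 1.24, but SPC25, which binds Spc24, rose by 0.93 ± 0.11, and SLI15, a partner of the Aurora kinase, rose by 1.42 ± 0.12. In the list of APC/C and SCF 4 of 23 genes rose and 8 fell, with a median of -0.02. Among them APC9 rose by 1.90 ± 0.09 and ACM1, an inhibitor of the APC/C, fell by 1.40.

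Of 37 histone modifier genes 23 fell and 3 rose, or 6 rose with rescaling by median ratios. HST3, which deacetylates a lysine in the core of histone H3, fell from 183, 154 and 204 to 28.7, 41.9 and 38.5 FPKM, and RTT109, the acetylase of the same lysine, from 168, 153 and 156 to 62.6, 60.2 and 55.6 FPKM. For neither did the groups overlap (log2 changes -2.29 ± 0.17 and -1.41 ± 0.09, limma adjusted p = 4.56e-07 and 1.45e-07). HOS2, a deacetylase of the Set3 complex, rose by 1.15 ± 0.13 while SET3 fell by 0.38. Of 26 genes of the remodelers Swi/Snf and RSC 21 fell, all by less than 2-fold, and none rose, or 1 with rescaling by median ratios. Of 72 DNA repair and checkpoint genes 17 rose, or 11 without stimulated replicate 1, and 24 fell. OGG1, which removes oxidised guanine, fell by 1.49 and SRS2, a helicase, by 1.31, while PHR1, the photolyase, and MAG1, a DNA glycosylase, rose by 1.24 ± 0.13 and 1.09 ± 0.09. Of 28 meiotic recombination genes 9 rose and 3 fell, at low levels: the whole list summed to 1150 to 1290 FPKM unstimulated and 1257 to 1339 FPKM stimulated. All 3 that fell did so by 2-fold or more, with a lowest log2 change of -4.26, and 2 rose by as much. NDT80, the regulator of mid-meiosis, was at 56.5, 62.4 and 57.6 FPKM and rose to 95.4, 108 and 94.8 FPKM. For IME1 and SPO13, also known from meiosis, the groups overlapped. IME1 lay between 40.1 and 50.02 FPKM unstimulated and between 33.8 and 46.1 FPKM stimulated. SPO13 lay between 10.7 and 15.7 FPKM unstimulated and between 15.04 and 18.6 FPKM stimulated.

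In nutrient signalling 13 of 23 genes of the Ras and protein kinase A branch rose and 4 fell. RAS1 fell from 1188, 1276 and 1253 to 437, 409 and 472 FPKM, while RAS2, its paralog, rose by 0.26 ± 0.07 (limma adjusted p = 6.73e-08 and 0.00409). The phosphodiesterases of cyclic AMP moved apart, PDE1 by 1.57 ± 0.09 and PDE2 by -0.69 ± 0.11. The catalytic subunit TPK2 rose by 1.23 ± 0.07, the regulatory subunit BCY1 by 0.44 ± 0.07 and the adenylate cyclase CYR1 by 0.58 ± 0.14. YAK1, a kinase that opposes this branch, changed by 1.42 but overlaps another listed gene. In the list of TOR complexes 5 of 20 rose and 3 fell. YPK2 rose from 74.4, 71.8 and 67.7 to 277, 298 and 287 FPKM and YPK1 by 1.01 ± 0.06; these kinases act below TOR complex 2 and regulate sphingolipid synthesis. ORM2, a brake on sphingolipid synthesis that they control, rose by 0.92 ± 0.11, and ORM1 had a change of -0.25 ± 0.08 whose call is lost with 2 other scalings, without stimulated replicate 2 and without unstimulated replicate 3.

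**Figure D4:**
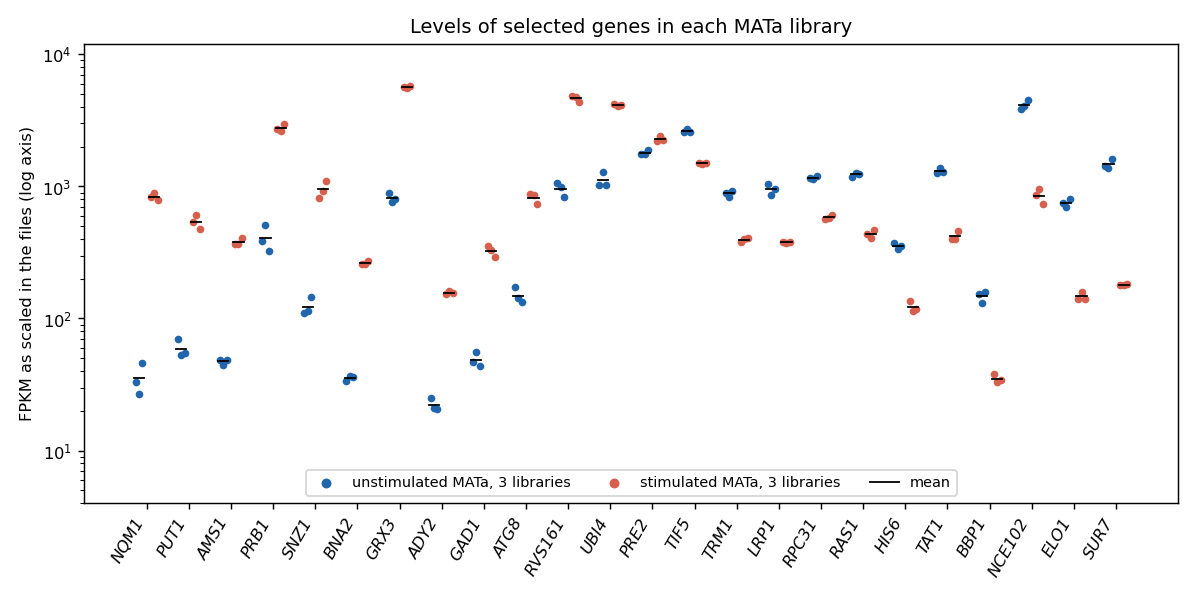
FPKM (log axis) of 24 genes in each of the 3 unstimulated and 3 stimulated MATa libraries, with bars at the group means. NQM1 lies between 26.8 and 45.8 unstimulated and between 793 and 887 stimulated, and SUR7 goes from at least 1377 to at most 183. The groups overlap in none of the 24 genes, but members of a list were picked by size of change only under that condition.

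Genes outside the 68 lists were ranked among those called that were above 0 in all 6 libraries, 200 nt or longer, with a gene symbol and no overlap with another listed gene. Among the 15 of these that rose most were AGA1, an agglutinin subunit, from 356, 527 and 365 to 10195, 11663 and 12052 FPKM, FUS1, which acts in cell fusion, from 196, 169 and 156 to 3017, 3219 and 3176 FPKM, and AFR1, which regulates the receptor, with a change of 3.95 ± 0.19. PRM4 and PRM8, pheromone-regulated membrane proteins, changed by 4.72 ± 0.13 and 4.51 ± 0.09. Among the 15 that fell most were YOX1, a cell cycle repressor, from 232, 237 and 293 to 23.1, 23.6 and 16.3 FPKM, HHF1, a histone H4 gene with a near-identical copy, by 3.64, and AIM20 by 3.95 on the log2 scale.

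The response of MATa cells was also set against that of the MATα-playing-a strain, which shares no library with it. In limma the difference of the responses passed for 30 genes, 0.456% of those tested, and with the replicate number as a block for 15, of which 14 were among the 30. Only 1 of the 1802 list members was among them: ARI1, an aldehyde reductase, rose by 1.42 in MATa cells and by 1.93 in the other strain (adjusted p = 0.0105, and 0.0802 with the block). A difference that did not pass is not shown to be absent. For the lists the median log2 changes of both strains stand side by side: 1.53 and 1.39 for vacuolar hydrolases, 1.37 and 1.16 for gluconeogenesis and acetate, 0.70 and 0.71 for actin patches, -0.72 and -0.77 for tRNA modification and -1.01 and -1.27 for the spindle pole body.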

How the data were processed

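Total RNA of MATa cells was extracted with hot acid phenol and all 12 libraries of the series were sequenced in 1 lane, per the labels' protocols. The authors deposited 1 table of FPKM per library with gene coordinates; CASAVA 1.8.2, TopHat 1.1.4 and Cufflinks 0.9.3 are named in the submitters' processing notes, and the genome build is not given in the sources used here. FPKM times gene length summed to between 5.147 and 6.225 times what the unit permits, so the values carry a further scaling of unknown source. The library depth could not be recovered: low values showed no step of whole reads in any of the 6 libraries (highest score 2.45, against 3.17 for blurred values). Read strand is not stated, and 1420 genes overlap another listed gene.

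Genes with a mean of at least 1 FPKM over the 6 MATa libraries were fitted as log2(FPKM + 1) with limma 3.58.1 in R 4.3.3, with 4 group means over all 12 libraries, no replicate block, and eBayes with trend (8 residual and a median of 3.1 prior degrees of freedom). Tests were 2-sided with Benjamini-Hochberg adjustment over all tested genes and a threshold of 0.05. A fold on this scale understates the change of low genes. The replicates are biological replicates in the labels' words. The p-values rest on the spread within the 4 groups, both strains included, as moderated by eBayes. They take all libraries as independent, although stimulated and unstimulated libraries may share cultures. Named genes are up to 4 members per list with the largest change among those called with at least 10 FPKM in a group and groups that do not overlap, the members of 47 isozyme pairs (1 further pair is not reported here), and up to 15 per direction outside the lists; other members are named as the remainder of a list, and a few of them for their place in a pathway after their values were seen. The comparison, lists, pairs and motifs were chosen with earlier results of these data known, so no count over them is independent support. Motifs were searched with Python 3.11.15 and Biopython 1.88 in 300 bases before the start codons of RefSeq R64. Tables and figures used pandas 2.3.3, numpy 2.4.6 and matplotlib 3.10.9. Tested on simulated data for the MATa comparison (6579 genes, 200 shifted, 5 runs), the fit found 91.2% of log2 shifts of 1 and 64.6% of those of 0.5. It called 0.13% of unshifted genes. The shifted genes were few and drawn only from genes of higher level, and the noise was independent between libraries. In the data 67.0% of the genes passed, so these rates do not carry over to the comparison itself.

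Alternatives were constants of 0.1 and 10, other filters, rescaling by median ratios, quantile normalisation, a replicate block, a fit to the MATa libraries alone, no trend, short or overlapping genes left out, and each library left out in turn.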

Additional observations from a re-analysis of the deposited data

Results flagged for a closer look

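For 7 of the named genes the response of MATa cells differed from that of the MATα-playing-a strain, by limma's test of the difference of the responses with adjustment over all 6579 genes; 0.456% of all genes passed. ASG7, which is expressed in a cells and dampens signalling after fusion, rose by 6.17 in MATa cells and had a log2 change of -0.22 in the other strain, a difference of 6.39 (adjusted p = 9.28e-09). The other 6 changed in the same direction in both strains. PCL1, a G1 cyclin, differed by -1.87 (-5.25 in MATa cells and -3.39 in the other strain, adjusted p = 0.0265). TOS4, a chromatin protein of G1/S, differed by -1.05 (-3.95 and -2.90, adjusted p = 0.00496). HTA2, a histone H2A gene with a near-identical copy, differed by -0.92 (-4.55 and -3.63, adjusted p = 0.00917). MCD1, the cohesin subunit, differed by -0.78 (-3.69 and -2.91, adjusted p = 0.0083). PCL9, a cyclin of G1, differed by -0.65 (-3.48 and -2.84, adjusted p = 0.0258). ARI1, an aldehyde reductase, differed by -0.51 (1.42 and 1.93, adjusted p = 0.0105). With the replicate number as a block only ASG7 of these 7 passed (adjusted p = 3.1e-06); TOS4, MCD1, HTA2, ARI1, PCL9 and PCL1 had adjusted p of 0.054, 0.0664, 0.0762, 0.0802, 0.0802 and 0.102 in limma. PCL9 also lost its call without any MATa library other than stimulated replicate 2, and PCL1 without stimulated replicate 3 or any unstimulated replicate; the other 5 passed without each MATa library in turn. The causes were not tested.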

How the results depend on the processing

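Over all 6579 genes, the counts of 1887 higher and 2521 lower stayed within 1.5 times under every alternative run. They ranged from 1752 to 1830 and from 2347 to 2470 as each MATa library was left out in turn, with 2 libraries then in that group. Rescaling by median ratios moved the median of all genes from -0.10 to -0.01 and gave 2173 higher and 2159 lower (50.2% of calls higher, against 42.8%). Quantile normalisation gave 1885 and 2408. Of the counts per list 2206 were within 1.5 times of the main value under an alternative and 106 were not, and most of those that touch a list described above stand beside it; with both other scalings 2 genes in place of 1 rose in the lists of the V-ATPase, the mitochondrial ribosome, the nuclear pore, mRNA decay and tRNA modification. Of the values of named genes under an alternative 6369 kept direction and call, 26 lost the call, 15 gained one and 3 turned direction. These 3 were under quantile normalisation: HXK2 from -0.02 to 0.21, ENO2 from -0.34 to 0.16 and HSC82 from -0.19 to 0.07; the cause was not tested. Deviations of same-numbered MATa libraries correlated at 0.114, -0.0193 and 0.203. For replicates 1 and 3 the same-numbered library correlated best, while stimulated replicate 2 correlated best with unstimulated replicate 3 (0.0205). These values do not settle whether the numbers mark shared cultures, which no label states, and the main fit was left without a block. With the replicate block 1844 genes rose and 2481 fell, and the difference of the responses passed for 15 genes in place of 30; leaving out 1 MATa library in turn gave 22 to 45. With it no autophagy gene fell and no gene of the initiation or elongation lists rose, and TRX2 (log2 change 0.35) was the gene named by rule whose call was lost. Without counts the files give no depth, so counting error is not known and low levels are the least certain.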
